A study of Homo sapiens with 12 samples.

Results

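The nuclear genes for the respiratory chain and the ATP synthase were described in HepG2, a human liver cancer cell line that keeps much of the hepatocyte's secretory programme. Genes were chosen by symbol: every gene of the count table whose symbol begins with NDUFA, NDUFB, NDUFC, NDUFS, NDUFV, SDHA, SDHB, SDHC, SDHD, UQCR, CYC1, COX4, COX5, COX6, COX7, COX8 or ATP5. Of 110 such genes, 12 assembly factors, 5 pseudogenes and NDUFA4L2 were left out, which left 92 of the 26485 genes in the table. Of these 92, 85 encode subunits of complexes I to V: 37 of complex I, 4 of complex II, 10 of complex III, 18 of complex IV (with NDUFA4, now placed there) and 16 of complex V. The other 7 share the prefixes without encoding a subunit: ATP5S and ATP5SL, the read-through genes ATP5J2-PTCD1 and NDUFC2-KCTD14, and the antisense RNAs NDUFA6-AS1, NDUFB2-AS1 and NDUFV2-AS1.

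The series holds RNA sequencing of 4 stable HepG2 lines, each seeded in 3 wells of a 24-well plate. All were grown in low-glucose DMEM with serum, given a CRISPR vector by lipofection, and put under blasticidin 48 h later. The control line, Empty, received a vector without a guide and carries the genotype label WT. Lines Z2, Z5 and Z9 received sgZHX3-2, sgZHX3-5 and sgZHX3-9 and are labelled ZHX3-depleted. Whether a line is 1 clone or a pool is not given in the sources used here. Wells a to c of a line are the replicates (n = 3), so p-values measure the spread between wells and not between independently made lines, and every comparison with Empty uses the same 3 Empty wells.

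The respiratory chain moves electrons from NADH (through complex I) and from succinate (through complex II) by way of coenzyme Q, complex III and cytochrome c to oxygen at complex IV. Complexes I, III and IV pump protons across the inner mitochondrial membrane, and complex V, the ATP synthase, lets them flow back to make ATP. All complexes except complex II combine subunits encoded in mitochondrial DNA with a larger number encoded in the nucleus. Liver cells rely on this system for the energy of gluconeogenesis and urea synthesis, while hepatoma lines in culture also draw heavily on glycolysis.

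Library totals were 50864744 to 65428204 counts. ZHX3 mRNA, checked first because the vectors name it, averaged 33.0 ± 0.421 CPM (counts scaled to a common library size) across the Empty wells. The averages of Z2, Z5 and Z9 were 34.5 ± 0.620, 32.9 ± 0.505 and 34.3 ± 0.713 (SD, n = 3 wells), with an edgeR adjusted p of 0.544 for the mean of the 3 lines minus Empty. Gene counts do not show edits of a few bases and do not measure protein, so the depletion in the labels was not checked and the lines are described by their labels only. The liver markers ALB (17500 CPM in Empty), AFP (10900) and APOA1 (1600) were abundant. Of the 10 liver markers, ALB, APOB and GPC3 were called lower and SERPINA1 and APOA1 higher for the mean of Z2, Z5 and Z9 (log2 fold change from -0.59 for ALB to 0.28 for SERPINA1). The calls of all but ALB were lost without Empty a. PTPRC, a defining marker of blood cells, was at 0 CPM in Empty, Z2 and Z9 and at 0.0185 in Z5. Summed per library, the markers of blood cells came to 1.53 to 2.82 CPM, of fibroblasts to 21.8 to 32.8 and of endothelium to 6.20 to 8.57. Most of the fibroblast sum was PDGFRB, at 24.5, 24.4, 26.7 and 26.6 CPM in Empty, Z2, Z5 and Z9. The other fibroblast markers averaged at most 0.756 CPM in any line. The endothelial marker CDH5 rose from 0.485 CPM in Empty to 1.67, 1.63 and 1.32 in Z2, Z5 and Z9, while KDR was at 0 in all lines. Library Z2 b stood apart from Z2 a and Z2 c for many of these genes, so counts that rest on it are given with and without it.

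In the Empty line, levels were compared per kilobase of transcript, using the median length of the protein-coding transcripts of a gene in GENCODE 29, since long transcripts collect more reads. The most abundant subunit mRNA was ATP5B, the catalytic beta subunit of the ATP synthase head, at 374 CPM per kb. In complex IV the highest was COX4I1 (257 CPM per kb), the common isoform of a regulatory subunit. UQCRC2, a core protein of complex III, reached 238, SDHC, a membrane anchor of complex II, 177, and NDUFAB1, the acyl carrier protein that is also part of complex I, 156. The median over the tested subunits of a complex was 50.2 CPM per kb for complex I, 68.1 for complex II, 109 for complex III, 117 for complex IV and 110 for complex V. The lowest tested members were NDUFV3 (8.26 CPM per kb) in complex I, SDHB (34.7) in complex II, UQCRHL (4.71) in complex III, COX6B2 (0.0734) in complex IV and ATP5E (0.282) in complex V. ATP5E encodes the epsilon subunit of the F1 stalk. Its gene overlaps a read-through gene, and the level depends on how the authors assigned shared reads, so it is uncertain. UQCRHL and UQCRH, SDHA with its pseudogene copies, and the 3 c-subunit genes share sequence with near-identical copies, and their counts are uncertain for the same reason. The length used for UQCRHL was 2180 bases, while RefSeq places the gene at 15807374 to 15807649 on chromosome 1, a shorter span. Its level per kilobase and its rank in complex III are therefore uncertain too.

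**Figure D1:**
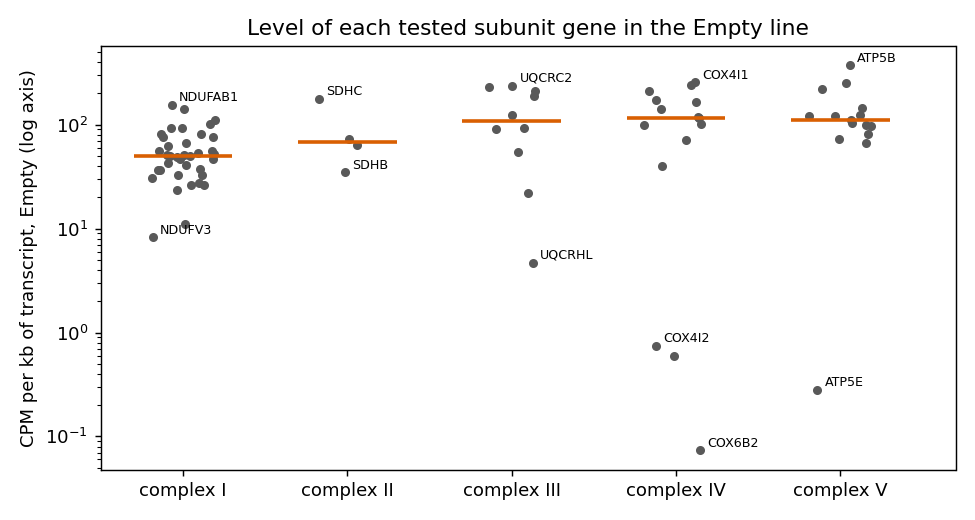
Each point is 1 tested subunit gene in the Empty line, plotted as CPM per kilobase of transcript on a log axis and grouped by complex; orange bars are medians. ATP5B is the highest at 374 CPM per kb, and the points under 1 CPM per kb are tissue isoforms of complex IV and ATP5E.

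Of the 85 subunit genes, 81 had enough counts to be tested. The 4 others were COX6A2 and COX7B2, with 0 counts in every library, and COX8C and ATP5L2, with 4 to 17 and 14 to 20 counts per line. Each comparison was fitted on the whole table with edgeR, and a gene was called at an adjusted p under 0.05 over all 15289 genes tested. For the mean of the 3 lines minus Empty, 2 subunit genes were called higher and 15 lower (21.0% of 81), and over all members tested 3 of 86 were called higher and 15 lower. Over all genes tested, 25.6% were called, 13.0% higher and 12.6% lower. The share of subunit genes called was therefore below the background in total, above it for lower calls and below it for higher calls. The median log2 fold change was -0.071 over the 81 subunit genes and 0.003 over all genes, and 18 of the 81 values were positive. The SE of a subunit with at least 5 CPM in Empty ranged from 0.037 to 0.20, with a median of 0.051, so that a typical difference was little larger than its error. The number of members called was 8 without Empty a, 11 without Empty b and 11 without Z9 b, and 25 without Z2 b. The 7 members gained without Z2 b were UQCRH, UQCRC1, NDUFS1, NDUFB4, NDUFC2, ATP5I and ATP5J2, all lower. The share of all genes called moved too, to 13.6% without Empty a and 30.9% without Z2 b. With the wells of a line summed, 3 members were called (COX4I2 higher, NDUFS7 and UQCR11 lower) and 6.65% of all genes. In that fit Empty is 1 sample, assumed to vary like the other lines.

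By complex, for the mean of the 3 lines, the share of tested genes called lower was highest in complex V. It was 40.0% in complex V, 25.0% in II, 20.0% in III, 16.2% in I and 0.0% in IV, against 12.6% of all genes. Of 15 tested complex V genes, 6 were called lower and 0 higher, with a median log2 fold change of -0.126. Of 37 complex I genes 6 were called lower and 1 higher (median -0.087), of 4 complex II genes 1 was called lower (-0.071), and of 10 complex III genes 2 were called lower (-0.072). In complex IV 1 of 15 was called higher and 0 lower, with a median of -0.035. These counts moved with single libraries: the lower calls in complexes V, I, II, III and IV were 8, 9, 1, 4 and 0 without Z2 b, 1, 2, 1, 2 and 0 without Empty a, and 2, 4, 1, 2 and 0 without Empty b. Over all genes, 15.7%, 6.33% and 8.40% were called lower in those fits. In the single lines (Z2, Z5, Z9) complex V had 3, 1 and 6 lower calls (20.0%, 6.67% and 40.0%), and complex II 1, 1 and 2 of its 4 genes. Over all genes 11.5%, 6.68% and 9.58% were called lower in these lines. Leaving out Z2 b gave 2, 3 and 8 lower calls in complex V and 1, 1 and 2 in complex II. In those fits 1533, 1578 and 2084 of all 15476 genes tested were called lower. Differences between complexes were not tested. The dividing-cell markers moved in the same comparison: all 10 were called lower, their summed level was 716 to 935 CPM in the Empty wells and 559 to 694 in the other wells, and their part in the subunit values was not tested. In bulk RNA, fewer cells that express a gene and less RNA per cell cannot be told apart.

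**Figure D2:**
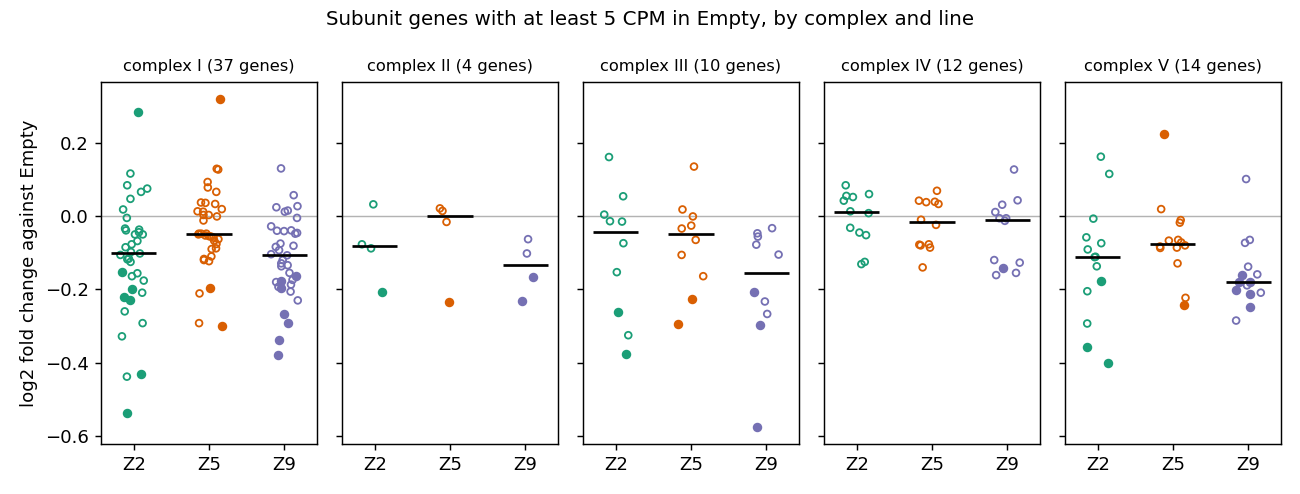
Log2 fold change against Empty of each subunit gene with at least 5 CPM in Empty, by complex (panels) and line (colours). Filled points passed the edgeR test, open points did not, and black bars are medians. Most points lie below 0 in complexes I, III and V, most clearly for Z9, while those of complex IV lie close to 0.

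Counted by wells, the 3 Empty wells all lay above the other 9 wells for 15 of 81 subunit genes (18.5%, against 8.31% of all genes tested). They all lay below the other 9 for 1 subunit gene, COX4I2 (1.23%, against 8.83%). In 40 of the 81 the highest of the 4 line means was that of Empty, and in 45 the lowest was that of Z9. Over all genes tested Empty had the highest mean in 31.5% and Z9 the lowest in 23.9%. Without Z2 b, Z9 had the lowest mean in 54 of the 81 and in 24.6% of all genes.

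In each of Z2, Z5 and Z9, 6 of the 81 tested subunit genes passed the test in the same direction, and all were lower: CYC1, NDUFS7, ATP5D, UQCR11, SDHB and NDUFS5. No subunit gene was higher in all 3. Of all 15289 genes tested, 762 were higher and 581 lower in all 3. With all libraries the subunit share was therefore above that of all genes for lower calls and below it for higher calls. The number lower in all 3 lines was 3 without Empty a (ATP5D, CYC1, NDUFS7), 2 without Empty b (ATP5D, UQCR11) and 1 without Z5 b (UQCR11), and 4 to 8 without any 1 other library. CYC1, which encodes cytochrome c1, the haem subunit of complex III that hands electrons to cytochrome c, had the lowest log2 fold change of the 6 for the mean of the 3 lines and in Z9, though not in Z2 or Z5. Its level was 242, 276 and 263 CPM in Empty a to c, 202, 180 and 220 in Z2, 209, 226 and 232 in Z5, and 177, 177 and 169 in Z9. Every Empty well lay above every other well, and the Z9 wells were the lowest. The log2 fold change of the mean of the 3 lines was -0.39 ± 0.055 (SE, edgeR adjusted p = 5.71e-05), and it was -0.38 in Z2, -0.23 in Z5 and -0.58 in Z9.

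NDUFS7, an iron-sulfur subunit next to the quinone site of complex I, was 27.6, 28.7 and 26.4 CPM in the Empty wells. It was 21.2, 18.9 and 21.3 in Z2, 22.2, 21.4 and 23.6 in Z5, and 19, 22.8 and 21.8 in Z9. The Empty wells lay above all others, while Z2, Z5 and Z9 overlapped, and the mean log2 fold change was -0.37 ± 0.059 (edgeR adjusted p = 2.18e-04).

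UQCR11, a small subunit of complex III, was 74.1, 65.8 and 67.3 CPM in the Empty wells. It was 59.7, 53.8 and 59.3 in Z2, 53.0, 60.2 and 55.7 in Z5, and 53.7, 59.2 and 55.8 in Z9. All 9 wells of the labelled lines were below the lowest Empty well (-0.28 ± 0.051, edgeR adjusted p = 5.89e-04).

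ATP5D, the delta subunit of the F1 stalk, was 69.6, 68.7 and 69.0 CPM in Empty, the narrowest spread of these 6 genes in that line. It was 51.7, 48.2 and 57.0 in Z2, 57.8, 56.6 and 61.0 in Z5, and 55.5, 60.9 and 58.1 in Z9 (-0.30 ± 0.048, edgeR adjusted p = 2.19e-04). Empty did not overlap with the other lines.

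SDHB, the iron-sulfur subunit of complex II, was 40.3, 41.1 and 38.5 CPM in Empty. It was 33.3, 37.4 and 33.2 in Z2, 34.8, 33.3 and 33.9 in Z5, and 33.9, 33.8 and 34.3 in Z9 (-0.23 ± 0.046, edgeR adjusted p = 0.00168). The log2 fold changes of Z2, Z5 and Z9 were close to each other at -0.21, -0.23 and -0.23. The other complex II genes were not called: SDHA, the flavoprotein that oxidises succinate, was at -0.07, and the membrane anchors SDHC and SDHD at -0.074 and -0.005.

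NDUFS5, an accessory subunit of the complex I membrane arm, was 81.5, 76.4 and 73.1 CPM in Empty. It was 68.4, 70.7 and 68.7 in Z2, 68.6, 67.0 and 66.1 in Z5, and 58.1, 60.8 and 63.6 in Z9 (-0.23 ± 0.042, edgeR adjusted p = 6.92e-04). Z9 was lowest, and its fold change of -0.34 stood beside -0.15 in Z2 and -0.20 in Z5. The calls of these 6 genes for the mean of the 3 lines held with any 1 library left out. With wells summed per line, Empty being 1 sample, the edgeR adjusted p was 0.0768 for CYC1, 0.0592 for ATP5D, 0.120 for SDHB and 0.165 for NDUFS5.

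**Figure D3:**
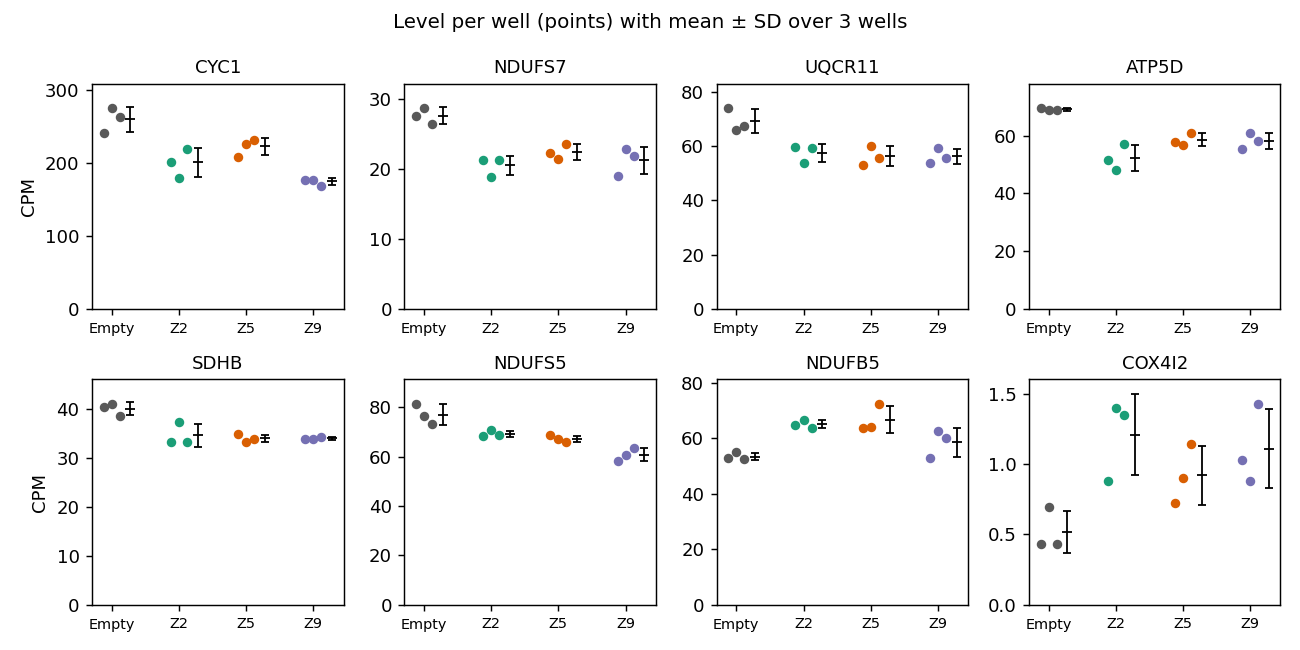
Level in CPM of 8 subunit genes, with 1 point per well and, beside the points, the mean ± SD over 3 wells of a line; each axis starts at 0. In the first 6 panels the Empty wells lie above all wells of Z2, Z5 and Z9, while NDUFB5 and COX4I2 are higher in the labelled lines, with Z9 a at 52.9 CPM among the Empty wells for NDUFB5.

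Of these 6 genes, 3 are near neighbours on the short arm of chromosome 19 (RefSeq, GRCh38.p14): ATP5D from 1241751 to 1244825, NDUFS7 from 1383907 to 1395584 and UQCR11 from 1597169 to 1605462. In the outer 6 Mb of 19p, 165 genes were tested, of which 87 were called lower and 8 higher, with a median log2 fold change of -0.21. Within 1 Mb of ATP5D, 33 of 70 tested neighbours were called lower and 5 higher, within 1 Mb of NDUFS7 35 of 75 lower and 5 higher, and within 1 Mb of UQCR11 37 of 71 lower and 4 higher. The changes of these 3 members had the direction common among their neighbours and were larger than the neighbours' medians of -0.17, -0.17 and -0.20. NDUFA11, a membrane-arm subunit of complex I in the same 6 Mb, was at -0.10 ± 0.050 and was not called (edgeR adjusted p = 0.176).

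SDHB and NDUFS5 lie on 1p with UQCRH and UQCRHL. In the outer 90 Mb of 1p, 169 of 714 tested genes were called lower and 54 higher (median -0.081). Within 1 Mb of SDHB 3 of 20 neighbours were called lower and 2 higher (median -0.072). Within 1 Mb of NDUFS5 1 of 14 was called lower and 3 higher (median 0.04). Of 76 tested neighbours within 1 Mb of CYC1, 5 were called lower and 5 higher, with a median of 0.013. Without the members of both regions, 10 of 73 subunit genes were called lower and 2 higher for the mean of the 3 lines. These are 13.7% lower and 2.74% higher beside 12.6% and 13.0% of all genes, and the median was -0.069. The shares of all genes still include the genes of both regions, so the 2 sets are not matched. For Z5, leaving out the members of both regions left 1 lower call of 6. DNA copy number was not measured here, and the part of position in these values was not tested.

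**Figure D4:**
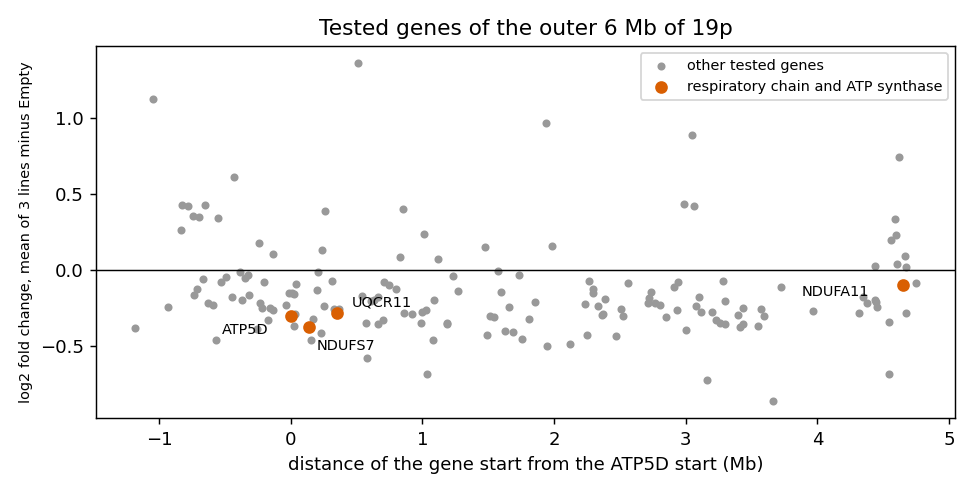
Log2 fold change (mean of 3 lines minus Empty) of the 165 tested genes in the outer 6 Mb of 19p against the distance of their start from the ATP5D start. The 3 called members (orange) lie among neighbours that are mostly below 0, and NDUFA11 lies nearer to 0 at 4.65 Mb.

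Upstream sequence is shown for the called genes NDUFS7, UQCR11 and SDHB and, as a member of the same system that was not called, COX4I1. Each is the 250 bases before the annotated start, 5′ to 3′ on the gene's strand, from RefSeq on GRCh38.p14. Capitals mark matches on either strand to CCGGAAG, the core that ETS factors such as the GABP complex bind, and to GGGCGG, the core of the SP1 site, and no 2 matches overlap in these windows. NDUFS7 is at chr19:1383657-1383906 (plus strand), UQCR11 at chr19:1605463-1605712 (minus), SDHB at chr1:17054033-17054282 (minus) and COX4I1 at chr16:85799445-85799694 (plus).
NDUFS7: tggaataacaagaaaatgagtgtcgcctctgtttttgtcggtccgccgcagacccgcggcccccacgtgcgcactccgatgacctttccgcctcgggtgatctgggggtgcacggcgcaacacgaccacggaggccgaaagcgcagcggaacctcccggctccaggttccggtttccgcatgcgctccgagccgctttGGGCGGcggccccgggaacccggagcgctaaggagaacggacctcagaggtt
UQCR11: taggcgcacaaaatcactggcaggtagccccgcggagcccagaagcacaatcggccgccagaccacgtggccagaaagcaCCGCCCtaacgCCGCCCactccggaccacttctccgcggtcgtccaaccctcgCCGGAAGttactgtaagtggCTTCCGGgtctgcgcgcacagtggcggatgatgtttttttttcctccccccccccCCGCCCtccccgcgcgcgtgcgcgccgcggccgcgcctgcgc
SDHB: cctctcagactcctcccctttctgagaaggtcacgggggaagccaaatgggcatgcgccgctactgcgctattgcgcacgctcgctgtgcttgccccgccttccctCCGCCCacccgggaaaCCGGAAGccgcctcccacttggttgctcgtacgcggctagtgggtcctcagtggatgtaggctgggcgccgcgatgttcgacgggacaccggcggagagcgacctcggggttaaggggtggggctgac
COX4I1: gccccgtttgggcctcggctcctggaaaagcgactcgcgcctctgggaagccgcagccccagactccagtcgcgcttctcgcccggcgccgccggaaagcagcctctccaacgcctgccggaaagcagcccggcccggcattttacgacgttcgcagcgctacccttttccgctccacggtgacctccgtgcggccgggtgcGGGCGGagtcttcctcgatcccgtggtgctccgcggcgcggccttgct

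UQCR11 held 2 ETS matches and 3 SP1 matches, SDHB 1 of each, and NDUFS7 and COX4I1 each 1 SP1 match and no ETS match. A window was at hand for 68 of the 85 subunit genes. CCGGAAG was in 23.5% of them, against 11.8% of 15843 windows of protein-coding genes and 8.82% of all 27305 windows. The palindromic core of the NRF1 site was in 4.41%, against 1.48% of protein-coding windows and 1.13% of all windows, which is 3 of 68 genes. The YY1 core AAGATGGC was in 1.47% (1.39% and 1.37%), CCAAT, the NF-Y core, in 32.4% (34.5% and 33.0%), and GGGCGG in 52.9% (56.0% and 42.3%). These matches describe letters in a window and were not related to the fold changes.

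Beyond NDUFS7 and NDUFS5, complex I had 4 more lower calls, all near the threshold. NDUFS6, an accessory subunit of the NADH-oxidising arm, was 31.8, 29.7 and 29 CPM in the Empty wells, 25.3, 14.9 and 22.1 in those of Z2, 26.4, 27.6 and 24.2 in Z5, and 24.8, 25.5 and 26.8 in Z9. The mean log2 fold change was -0.33 ± 0.11 (edgeR adjusted p = 0.0424), and Z2 b, at 14.9, was the lowest well. NDUFC1 (-0.16), NDUFA9 (-0.14) and NDUFAB1 (-0.13), counted here with the membrane arm, had edgeR adjusted p of 0.0485, 0.0494 and 0.0391. Leaving out any Empty well ended the calls of all 4 genes, with edgeR adjusted p from 0.0666 to 0.232. Leaving out Z9 a or Z9 b ended them as well (0.0595 to 0.0852). The NDUFS6 call was also lost without Z2 c, any 1 Z5 well or Z9 c, that of NDUFC1 without any 1 Z5 well, that of NDUFA9 without Z2 a, Z2 c, Z5 b or Z5 c, and that of NDUFAB1 without Z5 a or Z5 c (0.0511 to 0.0911).

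Among the nuclear-encoded core subunits of complex I, which form its catalytic part, NDUFS7 was the only one of 7 called for the mean of the 3 lines. NDUFV1 was called in Z2 (-0.22, edgeR adjusted p = 0.0231), a call lost without Z2 b, and NDUFS1 was called for the mean of the 3 lines without Z2 b. NDUFS1, which holds iron-sulfur clusters of the NADH arm, was at -0.09, NDUFV1, the flavin subunit, at -0.11, and NDUFV2 at -0.06. As the genes were grouped here, 1 of 10 of the NADH-oxidising module, 1 of 5 of the quinone module and 4 of 22 of the membrane arm were called lower for that mean. In Z2, 3 of 10 of the NADH module were called lower (NDUFV1, NDUFV3 and NDUFS6), against 0 in Z5 and in Z9. Over all genes 11.5%, 6.68% and 9.58% were called lower in Z2, Z5 and Z9. The calls of NDUFV1 and NDUFV3 in Z2 were lost without Z2 b, and the difference between lines was not tested. NDUFB5, a single-pass membrane-arm subunit, was the 1 complex I gene called higher. It was 53.0, 55 and 52.6 CPM in the Empty wells, 64.7, 66.6 and 63.9 in those of Z2, 63.6, 64.2 and 72.6 in Z5, and 52.9, 62.8 and 60.0 in Z9 (0.24 ± 0.053, edgeR adjusted p = 0.00273). Z2 and Z5 lay above Empty in every well, while Z9 a lay among the Empty wells and the Z9 difference of 0.13 was not called (edgeR adjusted p = 0.171). With wells summed per line its adjusted p was 0.147.

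In complex III, the core proteins UQCRC1 and UQCRC2 were at -0.12 ± 0.050 and 0.04 ± 0.051, and the Rieske iron-sulfur protein UQCRFS1 at -0.03 ± 0.038, none called with all libraries. UQCRH, the hinge protein that binds cytochrome c1, was 141, 135 and 140 CPM in the Empty wells, 127, 80.5 and 124 in those of Z2, 121, 129 and 120 in Z5, and 118, 115 and 112 in Z9. All Empty wells lay above the other 9, and Z2 b was far below the rest. The difference was not called with that library (-0.25 ± 0.10, edgeR adjusted p = 0.103) and was called without it (-0.19, edgeR adjusted p = 3.72e-04) and without Z2 a (-0.29, edgeR adjusted p = 0.0496). The small subunits UQCRB, UQCRQ and UQCR10 lay between -0.03 and 0.03.

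Complex IV takes up oxygen and has several subunits with tissue-specific isoforms. Its 12 ubiquitous nuclear subunits lay between -0.08 (COX7C) and 0.05 (COX8A) for the mean of the 3 lines. None was called by edgeR or by the DESeq2 Wald test, and none had an unadjusted p under 0.05. COX4I1 was 208, 198 and 204 CPM in the Empty wells, 210, 200 and 227 in those of Z2, 203, 212 and 212 in Z5, and 199, 205 and 205 in Z9, with overlap of all lines (0.03 ± 0.043). Its paralog COX4I2, an isoform known from lung and from cells short of oxygen, was the 1 complex IV gene called for the mean of the 3 lines. It was 0.432, 0.693 and 0.429 CPM in the Empty wells, 0.883, 1.40 and 1.35 in those of Z2, 0.723, 0.902 and 1.14 in Z5, and 1.03, 0.882 and 1.43 in Z9. The Empty wells were the lowest 3 of the 12, from 90 counts in that line against 154 to 192 in the others (1.05 ± 0.24, edgeR adjusted p = 0.00364). In Z5 alone the difference was not called (0.83, edgeR adjusted p = 0.0595). Even so COX4I1 stayed at 203 to 212 CPM per line beside 0.518 to 1.21 CPM for COX4I2.

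The other isoform pairs showed the liver pattern of 1 abundant and 1 scarce form. In Empty, per kilobase, COX6A1 was at 210 CPM and COX6A2 at 0, COX6B1 at 117 and COX6B2 at 0.0734, COX7A2 at 143 and COX7A1, the heart and muscle form, at 0.601, COX7B at 71.7 and COX7B2 at 0, and COX8A at 119 and COX8C at 0.0448. COX7A2L, which takes part in respiratory supercomplexes, was at 99.0 CPM per kb. None of those tested was called for the mean of the 3 lines. COX7A1 was at -0.33 ± 0.27 and COX6B2 at 0.53 ± 0.49, errors that leave changes of either sign possible.

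In the ATP synthase, the head subunits ATP5A1 and ATP5B, which form the catalytic hexamer, were both called lower. ATP5B was 708, 688 and 670 CPM in the Empty wells, 639, 637 and 635 in those of Z2, 667, 646 and 653 in Z5, and 606, 612 and 605 in Z9 (-0.12 ± 0.038, edgeR adjusted p = 0.0247). ATP5A1 was 478, 464 and 463 CPM in the Empty wells, 428, 454 and 437 in those of Z2, 450, 433 and 439 in Z5, and 411, 407 and 404 in Z9 (-0.13 ± 0.038, edgeR adjusted p = 0.0211). In both genes every Empty well was above every other well and the 3 Z9 wells were the lowest, yet the log2 fold change was -0.20 and -0.18 even in Z9. Neither call held without Empty a (edgeR adjusted p of 0.133 for ATP5A1 and 0.168 for ATP5B) or without Empty b (0.0618 and 0.0820).

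The stalk that holds the head still showed 2 lower calls of 4. ATP5F1, its main b subunit, was 144, 137 and 140 CPM in the Empty wells, 135, 126 and 128 in those of Z2, 130, 128 and 126 in Z5, and 121, 121 and 120 in Z9 (-0.15 ± 0.037, edgeR adjusted p = 0.00645). Without Empty a the edgeR adjusted p was 0.0620. ATP5J, coupling factor 6, was at -0.13 ± 0.045 (edgeR adjusted p = 0.0475), a call lost without any 1 Empty well (0.0733 to 0.257), without any 1 Z9 well (0.0539 to 0.0725) and without Z5 a or Z5 c (0.0748 and 0.0809). ATP5O, which links stalk and head, was at 0.03 and ATP5H at -0.13, neither called.

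The c ring, which turns as protons pass, is encoded by 3 genes whose mature proteins are the same. For the mean of the 3 lines ATP5G3 was at -0.15 ± 0.050 (edgeR adjusted p = 0.0379), ATP5G1 at -0.09 ± 0.057 (0.287) and ATP5G2 at 0.15 ± 0.059 (0.0801), and the difference between these genes was not tested. ATP5G3 was 220, 208 and 209 CPM in the Empty wells, 201, 167 and 196 in those of Z2, 200, 199 and 202 in Z5, and 181, 191 and 190 in Z9. ATP5G2 was 92.9, 103 and 101 CPM in the Empty wells, 98.7, 102 and 120 in those of Z2, 107, 119 and 121 in Z5, and 99.5, 108 and 111 in Z9. The ATP5G3 wells of Empty stood above the rest, while the ATP5G2 wells overlapped. The ATP5G3 call was lost without any 1 Empty well (0.0672 to 0.207), without any 1 Z5 well (0.0507 to 0.0639) and without Z9 a or Z9 b (0.0585 and 0.0520), and ATP5G2 was called higher in Z5 (0.22, edgeR adjusted p = 0.0458). It was also called in the mean contrast without Z2 a (edgeR adjusted p = 0.0333). Among the membrane genes ATP5I and ATP5J2 were at -0.24 each with SE of 0.12 and 0.089, not called with all libraries and called without Z2 b, and ATP5L at -0.07. The rotor subunit ATP5C1 was at -0.06.

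The members that encode no subunit were few and mostly scarce. ATP5S, which encodes a factor of the coupling-factor B type now named DMAC2L, was the 1 called for the mean of the 3 lines (12.7 CPM in Empty against 14.4, 14.6 and 13.9; 0.17 ± 0.058, edgeR adjusted p = 0.0381). Its call was lost without any 1 Empty well (0.0707 to 0.199), without Z5 a or Z5 b (0.0558 and 0.0644) and without Z9 b or Z9 c (0.0704 and 0.0600). ATP5SL was at -0.12 and was called lower in Z2 (-0.16, edgeR adjusted p = 0.0445), a call lost without Z2 b, and the 3 antisense RNAs, between 0.647 and 1.13 CPM in Empty, were not called. Reads of an antisense RNA and its partner could not be told apart, since the strand setting is not given in the sources used here. Both read-through genes were at 0.

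Line by line, 14 subunit genes were called in Z2 (2 higher, 12 lower), 8 in Z5 (2 and 6) and 20 in Z9 (1 and 19). Over all members these were 15, 8 and 20 of 86. The background was 23.9% of genes called in Z2 (12.4% higher, 11.5% lower), 15% in Z5 (8.27% and 6.68%) and 19.2% in Z9 (9.66% and 9.58%). The share of subunit genes called was 17.3% in Z2, 9.88% in Z5 and 24.7% in Z9. The summed level of all 85 subunit mRNAs was 7040 ± 115 CPM in Empty, and 6690 ± 210, 6820 ± 56.0 and 6420 ± 149 CPM in Z2, Z5 and Z9 (SD, n = 3 wells). Empty wells spanned 6940 to 7170 CPM and Z9 wells 6250 to 6520. The median log2 fold change over subunit genes was -0.077 in Z2, -0.048 in Z5 and -0.120 in Z9, against 0.003, 0.003 and 0.008 over all genes.

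Among the genes lower in Z9 minus Empty, and not called in Z2 or Z5, were NDUFB3 (-0.29) and NDUFB6 (-0.27) of the complex I membrane arm, UQCRC1 (-0.21), SDHC (-0.17), ATP5C1 (-0.16) and NDUFA4 (-0.14), the last a complex IV subunit. None of these 6 differed between Z9 and Z2 or between Z9 and Z5 by edgeR with all libraries, and all 6 lost their Z9 call without Empty a (edgeR adjusted p of 0.0682 to 0.167). The DESeq2 Wald test called ATP5C1 and NDUFA4 between Z9 and Z2, and SDHC between Z9 and Z5. By edgeR, SDHC was called lower in Z9 than in Z5 without Z2 b, and was also called without Z2 a. UQCRC1 was called between Z9 and Z2 without Z2 a. The count of 20 members in Z9 was 9 without Empty a, 12 without Empty b, 11 without Z9 a, 12 without Z9 b and 31 without Z2 b. The count of 8 in Z5 was 2 without Z5 b, 5 without Z5 c and 15 without Z2 b, and the count of 15 in Z2 was 6 without Empty a, 9 without Empty b and 24 without Z2 a.

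Direct comparison of the lines gave few calls. Between Z9 and Z2, 4 of 86 members were called, all lower in Z9 (background 5.17% of genes called, 1.96% higher and 3.21% lower): NDUFS5, the complex I quinone-arm gene NDUFA5, ATP5O and COX7B. ATP5O was 108, 125 and 111 CPM in Z2 against 96.7, 101 and 96.1 in Z9 (-0.23 ± 0.058, edgeR adjusted p = 0.0361). COX7B was 45.4, 47.4 and 45.2 CPM in Z2 against 39.0, 37.5 and 39.8 in Z9 (-0.25 ± 0.059, edgeR adjusted p = 0.0298). In both genes the groups did not overlap, and Z2 b was the highest Z2 well. All 4 calls were lost without Z2 b, when only CYC1 was called (1 of 86). The share of all genes called fell in that fit too, to 1.4% from 5.17%. Without Z9 a or Z9 b, 0 members were called. The shares over all genes in the fits other than that without Z2 b are not given here. The count was 1 to 3 without a Z5 well (3, 1 and 2 without Z5 a, b and c), 2, 1 and 2 without Empty a, b and c, 15 without Z2 a, 1 without Z2 c and 1 without Z9 c.

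Between Z9 and Z5, CYC1 alone was called, lower in Z9 (-0.35 ± 0.069, edgeR adjusted p = 0.0175; background 1.52% of genes called, 1.09% lower). The 3 Z9 wells (169 to 177 CPM) lay below the 3 Z5 wells (209 to 232). The count was 0 without Z5 b, Z5 c, Z9 a, Z9 b or Z9 c, 2 without Z2 a and 4 without Z2 b, when 4.22% of all genes were called. Between Z5 and Z2 no member was called by edgeR or by the DESeq2 Wald test, and by edgeR 1 gene of the table was (0.00654%). At an unadjusted p under 0.05 there were 19 members, 6 of them lower in Z5, and 2 members were called higher in Z5 without Z2 a.

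Library Z2 b had the lowest level of the 12 libraries in 36 of 81 subunit genes (44.4%, against 22.6% of all genes tested). Its median deviation from the mean of Z2 a and Z2 c was -0.138 on the log2 scale over subunit genes and -0.005 over all genes. In 8 subunit genes it was below -0.5: NDUFA1, NDUFA13, NDUFS6, UQCRH, ATP5I, UQCRHL, ATP5J2 and COX5B. NDUFA1, a small membrane-arm subunit, was at 16.1 CPM in Z2 b beside 39.0 in Z2 a and 30.6 in Z2 c. Subunit transcripts are short, with a median of 753 bases against 2512 over all tested genes with a length. The deviation was -0.18 for the 54 subunit genes with transcripts under 1 kb, 0.003 for the 17 of 1 to 2 kb and -0.036 for the 10 longer ones, and over all genes it was -0.093, -0.046 and 0.032. By GC content it was -0.056 for subunit transcripts under 45% GC and -0.196 for those of 55% or more, and over all genes 0.126 and -0.130. Without Z2 b the median subunit fold change of Z2 minus Empty was -0.018 in place of -0.077, with 2 genes called higher and 9 lower (13.6%, against 20.6% of all genes in that fit), whereas that of the mean of 3 lines was -0.065. Z9 a was the lowest library for 25 of the 81 genes (30.9%, against 10.8% of all genes tested). Empty a was the highest for 25 of the 81, and the share over all genes for the highest library is not given here.

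**Figure D5:**
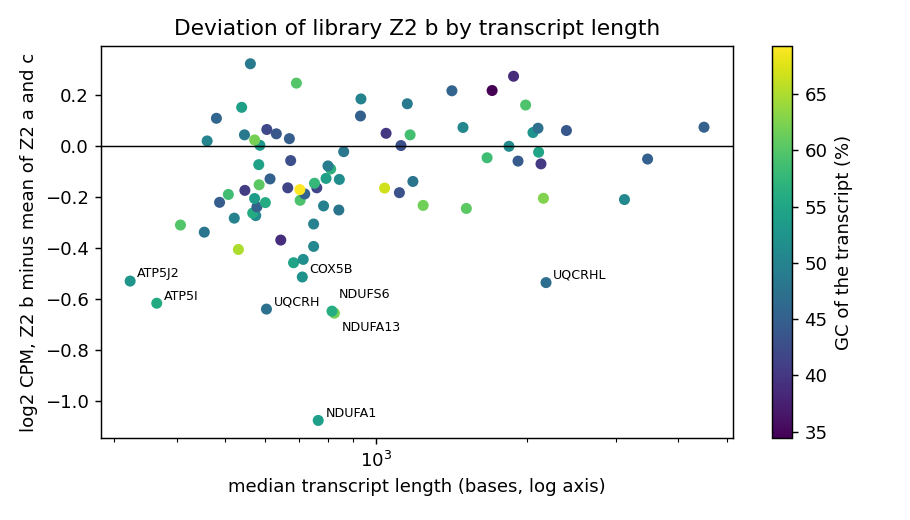
Log2 CPM of library Z2 b minus the mean of Z2 a and Z2 c for the 81 tested subunit genes, against median transcript length on a log axis and coloured by GC content. The 8 genes below -0.5 are named; UQCRHL is the 1 of them with a transcript over 1 kb, and NDUFA1 lies lowest at -1.08.

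Genes that serve the same system were examined from lists chosen with earlier results known. Of 50 tested assembly factors, 8 were called lower and 3 higher for the mean of the 3 lines (median -0.074), which is 16% and 6% beside 12.6% and 13.0% of all genes. ACAD9, needed to assemble complex I, fell most, from 24.4 CPM in Empty to 18.7, 19.5 and 19.9 in Z2, Z5 and Z9 (-0.33 ± 0.059, edgeR adjusted p = 5.70e-04). COA7 (-0.26), FOXRED1 (-0.20), a complex I factor, TMEM70 (-0.18), which serves the ATP synthase, BCS1L (-0.14), which inserts the Rieske protein, and ATPAF1 (-0.13) also fell. So did the copper-handling complex IV factors COX17 (-0.21) and COX11 (-0.18), while COX19 (0.20), SURF1 (0.19) and TIMMDC1 (0.13) rose. Only ACAD9 and COX11 of these 11 were called with any 1 library left out. The calls of the other 9 were lost without Empty a, and those of SURF1 and ATPAF1 were lost in 10 of 12 such fits, of TIMMDC1 in 8, of TMEM70 in 4, of BCS1L, COX17 and COX19 in 2, and of FOXRED1 and COA7 in 1.

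Of 15 tested genes for cytochrome c and coenzyme Q synthesis, none was called by edgeR or the DESeq2 Wald test for the mean of the 3 lines (median -0.077), while 3 were lower at an unadjusted p under 0.05. CYCS, cytochrome c itself, was at -0.15 ± 0.067 (edgeR adjusted p = 0.113). CYCS was called without Z2 a (-0.19) or without Z2 b (-0.11). None of the 3 tested ATP synthase genes outside the prefixes was called by edgeR or DESeq2 for the mean of the 3 lines (USMG5 -0.06, C14orf2 -0.12, ATPIF1 -0.06), and C14orf2 was lower at an unadjusted p under 0.05. C14orf2 was called lower in Z9 (-0.22, edgeR adjusted p = 0.0137). In the mean contrast it was called without Z2 b or Z5 b (edgeR adjusted p of 0.0403 and 0.0354). None of the 13 mitochondrially encoded subunit genes was among the genes analysed here, so the 2 genomes could not be compared.

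Among 21 tested regulators of mitochondrial biogenesis, 1 was called higher and 2 lower for the mean of the 3 lines (14.3%, below the 25.6% of all genes). The coactivators PPARGC1A and PPARGC1B went in opposite directions: PPARGC1A rose from 26.7 CPM in Empty to 38.3, 36.2 and 39.1 in Z2, Z5 and Z9 (0.50 ± 0.077, edgeR adjusted p = 1.81e-04), and PPARGC1B fell from 4.20 to 2.86, 2.69 and 2.86 (-0.58 ± 0.093, edgeR adjusted p = 1.99e-04). POLRMT, the mitochondrial RNA polymerase, fell (-0.22) and lies in the outer 6 Mb of 19p, like ATP5D. NRF1 (-0.04), GABPA (-0.01), ESRRA (0.05) and TFAM (-0.11) were not called.

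Of 18 genes of the tricarboxylic acid cycle and pyruvate dehydrogenase, 4 were called lower and 1 higher for the mean of the 3 lines (median -0.047). These are 22.2% and 5.56%, beside 12.6% and 13.0% of all genes. FH, fumarase, fell from 51.3 CPM in Empty to 42.6, 44.7 and 41.3 (-0.26 ± 0.049, edgeR adjusted p = 7.94e-04). IDH2 (-0.20), SUCLG1 (-0.18) and PDHA1 (-0.15) fell, and PDHB (0.11) rose. IDH2 and PDHA1 were not called without Empty a or without Empty b, and the PDHB call was lost in 10 of 12 fits with 1 library left out. In Z2, Z5 and Z9 alone, 1, 1 and 6 of the 18 were called lower and 2, 1 and 0 higher. Over all genes 11.5%, 6.68% and 9.58% were lower and 12.4%, 8.27% and 9.66% higher. Between Z9 and Z2, DLD, SUCLG2, PDHB and DLAT were called, all lower in Z9 (22.2%, against 3.21% of all genes). How these counts move without Z2 b is not given here.

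Of 6 hypoxia-linked genes of this system, 4 were called higher and 1 lower for the mean of the 3 lines. These are 66.7% and 16.7%, beside 13.0% and 12.6% of all genes. In Z2, Z5 and Z9 alone, 4, 3 and 2 were called higher and 1, 0 and 0 lower. Over all genes 12.4%, 8.27% and 9.66% were higher and 11.5%, 6.68% and 9.58% lower. NDUFA4L2, the paralog of NDUFA4 that oxygen-starved cells induce, rose from 0.741 CPM in Empty to 6.20, 5.80 and 4.91 (2.90 ± 0.17, edgeR adjusted p = 1.52e-09), while NDUFA4 went from 85.6 to 86.4, 81.0 and 77.6. COX4I2 is the second of the 4. PDK1, a kinase that shuts off pyruvate dehydrogenase (0.28), and BNIP3, a mitophagy receptor (0.21), rose less. Their Z9 means of 123 and 348 CPM stood beside 116 and 335 in Empty, and neither was called in Z9 (edgeR adjusted p of 0.424 and 0.558). Both were called lower in Z9 than in Z2 (edgeR adjusted p of 0.0149 and 0.0289). LONP1, a matrix protease, fell (-0.24) and is also in the 19p region (its call was lost without Empty c), and HIGD1A was not called (0.05).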

How the data were processed

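Whole-number read counts per gene symbol for 12 libraries were deposited by the authors. STAR, featureCounts and the build hg38 are named, per the submitters' processing notes. Their versions, the annotation, the strand setting and the handling of multiply mapped reads are not stated in those notes. Counts were fitted with edgeR 4.0.16 in R 4.3.3 (filterByExpr, TMM, robust quasi-likelihood, 4 group means, 8 residual degrees of freedom, Benjamini-Hochberg over 15289 genes, threshold 0.05). CPM are on TMM-scaled library sizes. SEs were derived from the log2 fold change and its F statistic. The members and lists were chosen with earlier results of these data known. Named genes were up to 4 called members per direction and complex, the extremes of level, paralog sets, members called between lines and the leading genes of each list, and other members were added after their values were seen. Wells of the same line gave chi-square values per degree of freedom of 6.01 to 43 over genes, so each was counted as its own library. Positions and sequences come from RefSeq (GRCh38.p14) and lengths from GENCODE 29, either of which may differ from the authors' annotation. The limits of 6 Mb and 90 Mb were taken from earlier results. On simulated counts for Z2 minus Empty (15158 genes) the test recovered 48% of genes at the smallest fold tried (1.25) and 90% at 1.5-fold, with 7.69% of calls false. Alternatives were DESeq2 1.42.0 (size factors and Wald test), no filter beyond 1 count, a replicate block, fits of the compared groups alone, omission of each library and of both chromosomal regions, and, added after seeing the data, wells summed per line. The values of 1 member are not reported here.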

Additional observations from a re-analysis of the deposited data

Results flagged for a closer look

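By a direct edgeR test, 5 members differed between 2 of the labelled lines, 4 of 86 (4.65%) between Z9 and Z2 and 1 of 86 (1.16%) between Z9 and Z5. Over all genes 5.17% and 1.52% were called, so these counts are near or below the background. In Z9 minus Z2 the log2 differences were -0.187 for NDUFS5, -0.227 for ATP5O, -0.25 for NDUFA5 and -0.246 for COX7B. ATP5O, NDUFA5 and COX7B were above Empty in Z2 (0.16, 0.12 and 0.08) and below it in Z9 (-0.07, -0.13 and -0.16), and none of these 6 values was called. NDUFS5 was below Empty in both lines. In Z9 minus Z5 the difference was -0.351 for CYC1, which was below Empty in both lines, and this call was lost without Z5 b, Z5 c or any 1 Z9 well. Lines share the Empty wells, and the 4 differences between Z9 and Z2 were not called without Z2 b, when 1.4% of all genes were called. With 3 wells per line, single wells were not tested as outliers.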

How the results depend on the processing

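Of 32 named genes called for the mean of the 3 lines, all 32 were also called with DESeq2 size factors and with the DESeq2 Wald test, 29 without a filter beyond 1 count, 31 with the replicate block, 7 with wells summed per line and 18 to 32 with 1 library left out, and no called value changed sign. Members called for the mean of the 3 lines numbered 3 with wells summed per line. With only the compared groups fitted, the counts were 7 in Z2, 16 in Z5 and 33 in Z9 against Empty, 0 for Z9 minus Z2 and 4 for Z9 minus Z5. Without members of both chromosomal regions, 3 were called in Z5. The DESeq2 Wald test called 12 for Z9 minus Z2 and 3 for Z9 minus Z5. For the DESeq2 fits and the fits of the compared groups alone, shares over all genes are not given here. The replicate letters were not taken to pair the wells, since not every pair passed: 8 of 18 same-letter pairs had a correlation over 0.1 (5 of 6 for letter a, 1 of 6 for b and 2 of 6 for c), and 6 of 12 libraries correlated best with their own letter. With the replicate block the counts were 7 for Z9 minus Z2, 2 for Z9 minus Z5 and 20 for the mean of the 3 lines. With 1 library left out, counts ranged from 8 to 25 for the mean of the 3 lines, 6 to 24 for Z2, 2 to 15 for Z5, 9 to 31 for Z9, 0 to 15 for Z9 minus Z2, 0 to 4 for Z9 minus Z5 and 0 to 2 for Z5 minus Z2. The share of all genes called moved between these fits too, and the cause of the shifts was not tested. Most member differences are small, and the simulated recovery at the smallest fold tried was 48%, so genes not called are not shown to be unchanged.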
